A study of Saccharomyces cerevisiae with 8 samples.

Results

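The genes described here encode the nucleolar factors that process ribosomal RNA and assemble ribosomal subunits in *Saccharomyces cerevisiae*, together with subunits of RNA polymerase I and its initiation factor Rrn3. They are a list of 53 open reading frames named by function, chosen with earlier results of these data known, out of 6868 features in the table. All 53 had a value on each of 8 arrays. RNA polymerase I transcribes the ribosomal DNA into 1 long precursor RNA. Small nucleolar ribonucleoproteins (snoRNPs) modify this precursor, and the small subunit processome and RNA helicases take part in its folding and cutting. Further factors mature and export the 40S and 60S subunits. In yeast the genes of this pathway are known to be transcribed at high level in growing cells and to be repressed together under many stresses.

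Each array compared NaCl-treated with unstressed cells of 1 strain of the W303 background, as a log2 ratio of transcript abundance. The *snf1* strain (3 arrays) is mutated in *SNF1*, which encodes the yeast AMP-activated protein kinase. The *cdc14-3* strain (2 arrays, replicates 2 and 3) carries a temperature-sensitive form of Cdc14, the phosphatase of mitotic exit, and the *cdc14-3 snf1* strain (3 arrays) carries both mutations. All cells were grown in YPD at 25 °C and moved to 35 °C, where Cdc14-3 is inactive, before 0.7 M NaCl was added for 30 min. The arrays numbered 1 of *snf1* and of *cdc14-3 snf1* had 90 min at 35 °C before the salt, and the 6 other arrays had 2 h. No array of wild-type cells and none of *cdc14-3* at 90 min was analysed here. Nothing states that replicates came from separate cultures, so p-values measure the spread between these arrays, which may be technical. Unstressed cells were harvested right before salt was added, according to the methods, so that treated cells also spent longer at 35 °C. A ratio does not give the level in unstressed cells, and a smaller fall cannot be told apart from a lower starting level.

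The log base and the direction of the deposited values are not stated with them. The ratios were read as log2 of NaCl-treated over unstressed cells, since 9 or 10 of 10 genes known to be induced by salt lay above 0 on each array. *GPD1*, which encodes an enzyme of glycerol synthesis, had a mean of 3.53 in *snf1*, 3.55 in *cdc14-3* and 3.50 in *cdc14-3 snf1*. *STL1*, which encodes a glycerol transporter, had means of 6.43, 7.50 and 6.73 in the same order. The median of each array lay between -0.0006 and 0, and the standard deviation over features ran from 0.72 to 1.10, with the widest spread on the 90 min array of *snf1*. Unless another fit is named, tests below are from 1 linear model in limma on all 8 arrays, with p-values adjusted over 6135 features and a threshold of 0.05. Tests on the 2 h arrays alone were fitted to those 6 arrays and adjusted over 6096 features.

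Most of the 53 transcripts fell after NaCl in every strain, and the median fall was least in *snf1* and most in *cdc14-3*. The median over the genes of the strain mean was -0.74 in *snf1*, -1.65 in *cdc14-3* and -1.25 in *cdc14-3 snf1*, which are falls of 1.67-fold, 3.14-fold and 2.38-fold. The same median over all features tested was -0.06, 0 and -0.03. In *snf1* 35 of the 53 genes were called lower and 1, *RRN3*, higher, where 27% of all features were lower and 24.3% higher (51.3% either way). In *cdc14-3* 51 genes were called lower and 0 higher, against 22% and 18.3% of all features (40.3% either way). In *cdc14-3 snf1* 51 genes were called lower and 0 higher, against 25.5% and 20.6% (46.1% either way). *RRN3* was called lower in no strain, and beside it *NOP10* was not called in *cdc14-3* and *TIF6* was not called in *cdc14-3 snf1*. On the log2 scale, 41 of the genes were below 0 on all 8 arrays, as were 24.5% of all features.

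**Figure D1:**
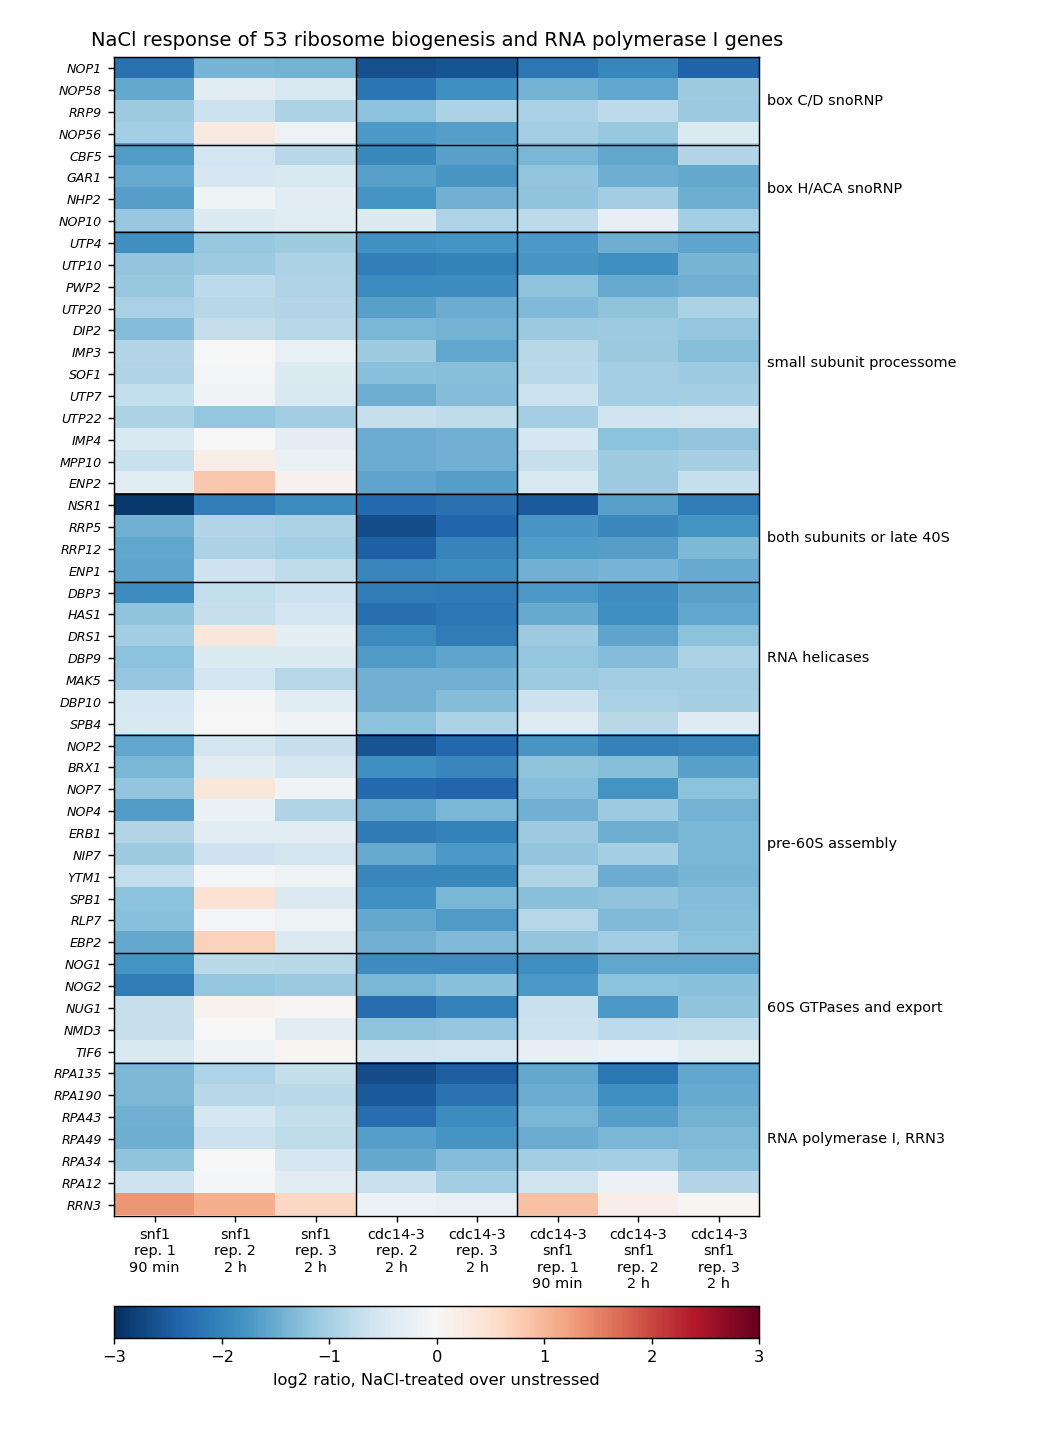
Heat map of the log2 ratio (NaCl-treated over unstressed) of the 53 genes (rows, by role, lowest mean first within a role) on the 8 arrays (columns, by strain and replicate, with the time at 35 °C before NaCl). The columns of *cdc14-3* are the darkest blue and the 2 h columns of *snf1* the palest, and *RRN3* in the bottom row is red in *snf1*.

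The spread between arrays was not alike in the strains. The median of the 53 genes on the 2 *cdc14-3* arrays was -1.71 and -1.66. On the *cdc14-3 snf1* arrays it was -1.18, -1.28 and -1.27, the first being the 90 min array. On the *snf1* arrays it was -1.21 at 90 min and -0.40 and -0.51 at 2 h. The small mean fall in *snf1* thus came from its 2 h arrays, and its 90 min array lay among the *cdc14-3 snf1* arrays. The comparisons with *snf1* are therefore also given for the 2 h arrays alone, 2 in each strain. Some of the single genes whose call changed there are named.

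**Figure D2:**
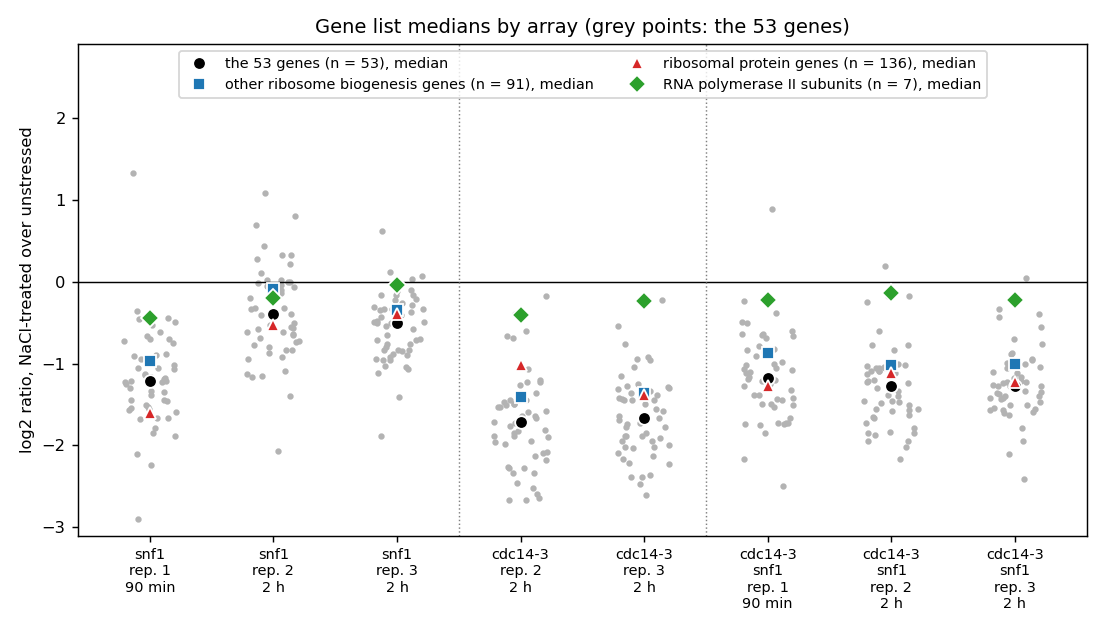
Log2 ratios by array: grey points are the 53 genes, and symbols are medians of gene lists. The median of the 53 genes lies between -1.71 and -1.66 on the *cdc14-3* arrays, between -1.28 and -1.18 on the *cdc14-3 snf1* arrays, and at -1.21, -0.40 and -0.51 on the *snf1* arrays, while the median of 7 RNA polymerase II subunit genes stays nearer 0.

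The 6 listed subunit genes of RNA polymerase I were all called lower after NaCl in *cdc14-3* and in *cdc14-3 snf1*. In *snf1* 5 of them were. The list leaves out *RPA14* and the genes of shared subunits, which are given below. Of all features 27% were called lower in *snf1*, 22% in *cdc14-3* and 25.5% in *cdc14-3 snf1*. These shares also stand beside the counts of the role groups below. The fifth call in *snf1*, *RPA34*, was lost on the 2 h arrays (-0.26, adjusted p in limma 0.201), as was that of *RPA12* in *cdc14-3 snf1* (-0.53, adjusted p in limma 0.0586). *RPA190* (YOR341W), the gene of the largest subunit, had log2 ratios of -1.34, -0.83 and -0.80 in *snf1*, of -2.52 and -2.21 in *cdc14-3*, and of -1.49, -1.85 and -1.51 in *cdc14-3 snf1*. *RPA135* (YPR010C), the gene of the second-largest subunit, had -1.35, -0.92 and -0.71 in *snf1*, -2.67 and -2.47 in *cdc14-3*, and -1.53, -2.16 and -1.55 in *cdc14-3 snf1*. For both genes the arrays of the 3 strains formed 3 ranges that did not overlap, with *cdc14-3* lowest and *snf1* highest. Means of *RPA190* with their SD were -0.99 ± 0.30 (*snf1*, n = 3), -2.36 ± 0.22 (*cdc14-3*, n = 2) and -1.62 ± 0.20 (*cdc14-3 snf1*, n = 3), which put *cdc14-3* minus *snf1* at -1.37 (SE 0.24, limma's adjusted p 0.00759). That of *RPA135* was -1.58 (SE 0.27, limma's adjusted p 0.00719).

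*RPA43* (YOR340C) encodes the subunit through which Rrn3 contacts the polymerase, and lies next to *RPA190* on chromosome XV. Its log2 ratio was -1.44, -0.53 and -0.71 in *snf1*, -2.28 and -1.89 in *cdc14-3*, and -1.38, -1.65 and -1.42 in *cdc14-3 snf1*. The *cdc14-3* arrays were the lowest, and the difference from *snf1* was -1.19 (SE 0.28, limma's adjusted p 0.0220). *RPA49* (YNL248C) and *RPA34* (YJL148W) encode a heterodimer of the enzyme. *RPA49* had -1.46, -0.65 and -0.76 in *snf1*, -1.66 and -1.77 in *cdc14-3*, and -1.49, -1.38 and -1.33 in *cdc14-3 snf1*. *RPA34* had -1.21, -0.01 and -0.51, then -1.53 and -1.31, then -1.05, -1.01 and -1.28 on the same arrays. For both, the *cdc14-3* arrays were below all *snf1* arrays, and the differences of -0.76 and -0.85 did not pass (adjusted p in limma 0.0652 and 0.0887). On the 2 h arrays alone they were -1.01 and -1.17 and passed (adjusted p in limma 0.00392 and 0.00786).

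The smallest response of a listed subunit gene was that of *RPA12* (YJR063W), whose product takes part in RNA cleavage by the polymerase. Its ratio was -0.61, -0.04 and -0.35 in *snf1*, -0.66 and -1.04 in *cdc14-3*, and -0.60, -0.18 and -0.87 in *cdc14-3 snf1*. The arrays of *cdc14-3 snf1* overlapped those of both other strains, and *cdc14-3* minus *snf1* was -0.51 (SE 0.26, limma's adjusted p 0.196). *RPA12* was called lower in *cdc14-3* (adjusted p in limma 0.00977) and in *cdc14-3 snf1* (0.0232) but not in *snf1* (0.122).

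*RRN3* (YKL125W) encodes the factor that binds RNA polymerase I and makes it competent to initiate. It stood apart from the listed subunit genes. Its log2 ratio was 1.32, 1.08 and 0.62 in *snf1*, -0.17 and -0.23 in *cdc14-3*, and 0.88, 0.19 and 0.04 in *cdc14-3 snf1*. All *snf1* arrays were above 0 and both *cdc14-3* arrays were below it, a pattern that no other of the 53 genes showed and that 4.75% of all features did. *RRN3* rose in *snf1* (mean 1.01 ± 0.36, SD, n = 3, adjusted p in limma 0.00204), and its means of -0.20 in *cdc14-3* and 0.37 in *cdc14-3 snf1* did not pass (adjusted p in limma 0.515 and 0.131). The *cdc14-3* minus *snf1* difference was -1.21 (SE 0.29, limma's adjusted p 0.0233). In this direction of difference, though not in the sign of its response in *snf1*, it was like the listed subunit genes.

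**Figure D3:**
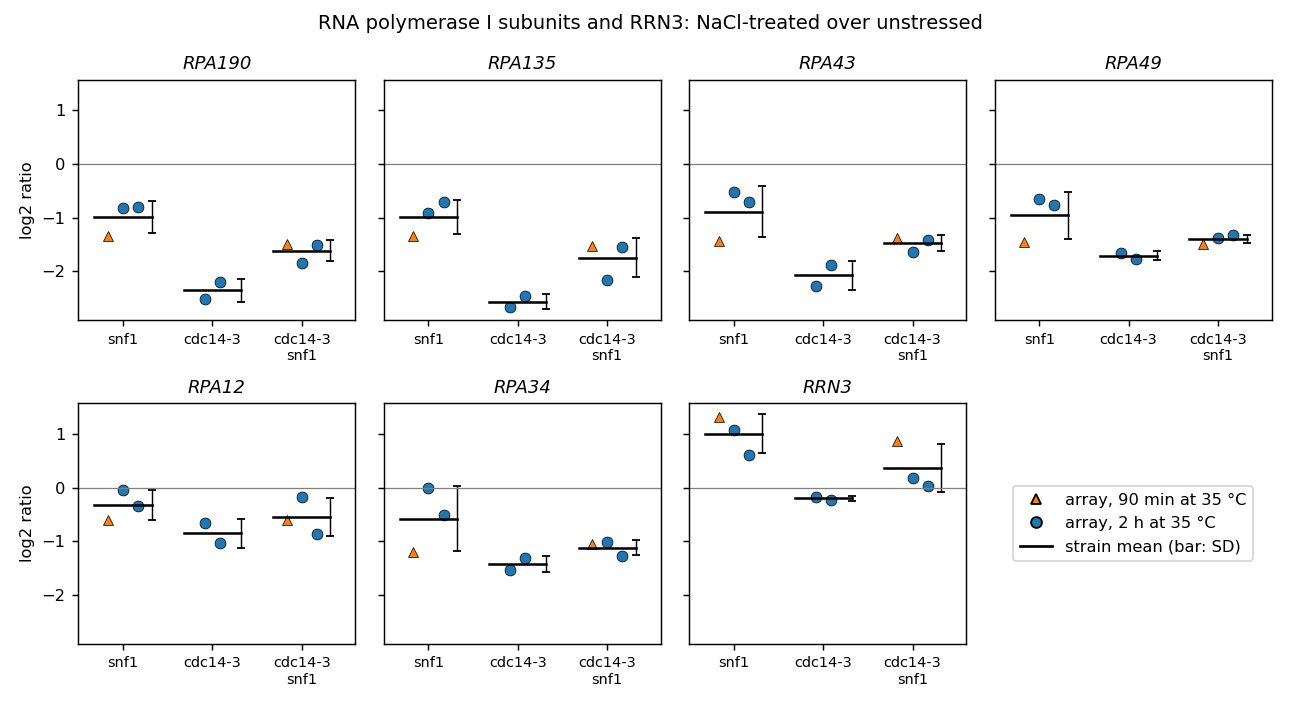
Log2 ratio of 6 RNA polymerase I subunit genes and *RRN3* by strain, 1 point per array (triangles 90 min, circles 2 h at 35 °C), with the strain mean (line) and its SD (bar). The *cdc14-3* means lie below the *snf1* means in all 7 panels, and *RRN3* alone has its *snf1* arrays, at 0.62 to 1.32, above 0.

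The other factors of RNA polymerase I transcription had medians nearer 0. Of 17 genes for shared subunits, *RPA14* and initiation factors, 6 were called lower and 2 higher in *snf1* (*RRN10* and *UAF30*, of the upstream activating factor). The counts were 9 lower and 0 higher in *cdc14-3*, and 9 lower and 1 higher (*RRN10*) in *cdc14-3 snf1*. Of all features 51.3%, 40.3% and 46.1% were called in these strains, so that the counts in *snf1* were near that share. Their medians were -0.42, -0.57 and -0.37. *RPA14*, the gene of a further subunit, had ratios of 0.31, 0.02 and 0.47 in *snf1*. Its means of 0.27, -0.26 and 0.01 in *snf1*, *cdc14-3* and *cdc14-3 snf1* did not pass (adjusted p in limma 0.181, 0.312 and 0.957). The shared subunit genes *RPC40* and *RPC19* were not called in *snf1* (-0.44 and -0.50, adjusted p in limma 0.0536 and 0.0825). Both were called lower in *cdc14-3* and in *cdc14-3 snf1*. *RPC40*, which encodes a subunit shared with RNA polymerase III, was lower in *cdc14-3* than in *snf1* by -0.99 (SE 0.27, limma's adjusted p 0.0339). *RRN7*, which encodes a subunit of the core factor, was lower too, with -0.96 (adjusted p in limma 0.0194). *HMO1*, which encodes a protein that binds ribosomal DNA, differed the other way, with 0.61 (SE 0.19, limma's adjusted p 0.0477). Of all features 18.9% were called in this comparison, 10.2% as lower and 8.74% as higher in *cdc14-3*.

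Box C/D snoRNPs methylate ribosomal RNA. The 4 genes of this group were called lower in *cdc14-3* and in *cdc14-3 snf1*, and 3 of them in *snf1*, with *NOP56* the exception. On the 2 h arrays the *snf1* call of *NOP58* was lost (-0.41, adjusted p in limma 0.0632). *NOP1* (YDL014W), the gene of the methyltransferase, had the lowest mean of the group. Its ratios were -2.24, -1.40 and -1.41 in *snf1*, -2.64 and -2.60 in *cdc14-3*, and -2.16, -1.95 and -2.41 in *cdc14-3 snf1*. *NOP56* (YLR197W), the gene of a core protein, had the highest mean of the group, with -1.02, 0.28 and -0.16 in *snf1*, -1.73 and -1.66 in *cdc14-3*, and -1.02, -1.13 and -0.43 in *cdc14-3 snf1*. For both genes the *cdc14-3* arrays were below all others. The differences of *cdc14-3* from *snf1* were -0.93 for *NOP1* (SE 0.28, limma's adjusted p 0.0459) and -1.39 for *NOP56* (SE 0.36, limma's adjusted p 0.0287). The call of *NOP1* held in 7 of 18 alternatives, the 2 h arrays among them (-1.21, adjusted p in limma 0.00461).

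Box H/ACA snoRNPs convert uridine to pseudouridine. All 4 genes of this group were called lower in *snf1* and in *cdc14-3 snf1*, and 3 in *cdc14-3*. *CBF5* (YLR175W), the gene of the pseudouridine synthase, had -1.68, -0.57 and -0.83 in *snf1*, -1.94 and -1.64 in *cdc14-3*, and -1.38, -1.56 and -0.88 in *cdc14-3 snf1*. *NOP10* (YHR072W-A), the gene of a small core protein, had -1.14, -0.41 and -0.37, then -0.40 and -0.92, then -0.79, -0.25 and -1.01. The strains overlapped for both genes. No gene of this group differed between *cdc14-3* and *snf1* past the threshold, and the differences ran from -0.89 for *NHP2*, a core protein gene, to -0.02 for *NOP10* (adjusted p in limma 0.0821 to 0.972 over the 4 genes). On the 2 h arrays 3 of the 4 passed, *CBF5* with -1.09, *GAR1* with -1.19 and *NHP2* with -1.37 (adjusted p in limma 0.0174, 0.00223 and 0.00426). In *snf1* itself *NHP2* and *NOP10* were not called there (-0.23 and -0.39, adjusted p in limma 0.228 and 0.146), and in *cdc14-3* *NOP10* was (-0.66, adjusted p in limma 0.0298).

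The small subunit processome assembles on the 5′ part of the precursor. Its 12 genes were called lower in *cdc14-3* (median -1.47) and in *cdc14-3 snf1* (median -1.03), and 8 of them in *snf1* (median of all 12, -0.68). In *snf1* the calls of *UTP7* and *SOF1* were lost on the 2 h arrays (-0.29 and -0.24, adjusted p in limma 0.0996 and 0.145). *UTP4* (YDR324C), the gene of a protein that joins early, had the lowest mean, with -1.85, -1.13 and -1.07 in *snf1*, -1.81 and -1.77 in *cdc14-3*, and -1.73, -1.47 and -1.59 in *cdc14-3 snf1*. The 90 min array of *snf1* was the lowest of all, and the strains overlapped. *cdc14-3* minus *snf1* was -0.44 (adjusted p in limma 0.242), and on the 2 h arrays it was -0.69 and passed (adjusted p in limma 0.0132). *ENP2* (YGR145W) had the highest mean and the third-lowest difference of all 53 genes. Its ratios were -0.36, 0.80 and 0.12 in *snf1*, -1.58 and -1.66 in *cdc14-3*, and -0.49, -1.09 and -0.70 in *cdc14-3 snf1*. The 3 strains did not overlap, and *cdc14-3* minus *snf1* was -1.81 (SE 0.32, limma's adjusted p 0.00868).

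*UTP22* (YGR090W), the gene of another processome component, ran against the rest. Its ratios were -0.95, -1.15 and -1.04 in *snf1*, -0.69 and -0.76 in *cdc14-3*, and -1.01, -0.60 and -0.55 in *cdc14-3 snf1*. It fell in all 3 strains (adjusted p in limma 0.000301, 0.00575 and 0.00198). Both *cdc14-3* arrays were above all *snf1* arrays, the only case among the 53 genes, and the difference of 0.32 did not pass (SE 0.20, limma's adjusted p 0.281). As a description, the median of its correlations with the other genes over the 8 arrays was -0.69, and the same median for those genes ran from 0.21 for *NOG2* to 0.94 for *NOP7*.

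The 4 genes that act on both subunits or late in 40S maturation all fell in all strains, with medians of -1.13, -2.26 and -1.69. *NSR1* (YGR159C), which encodes a protein like nucleolin, had the lowest mean of all 53 genes. Its ratios were -2.90, -2.07 and -1.88 in *snf1*, -2.34 and -2.23 in *cdc14-3*, and -2.49, -1.63 and -2.10 in *cdc14-3 snf1*. The strains overlapped throughout, and the *cdc14-3* and *snf1* means were both -2.28. *ENP1* (YBR247C), the gene of a 40S precursor protein, had -1.59, -0.61 and -0.76 in *snf1*, -1.98 and -1.91 in *cdc14-3*, and -1.43, -1.40 and -1.51 in *cdc14-3 snf1*. Here *cdc14-3* minus *snf1* was -0.96 (SE 0.28, limma's adjusted p 0.0416), a call that held in 7 of 18 alternatives, the 2 h arrays among them (-1.26, adjusted p in limma 0.00212).

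Of the 7 RNA helicase genes, all were called lower in *cdc14-3* and in *cdc14-3 snf1*, and 4 in *snf1*. *DBP3* (YGL078C), the gene with the lowest mean, had -1.89, -0.74 and -0.65 in *snf1*, -2.09 and -2.13 in *cdc14-3*, and -1.72, -1.87 and -1.60 in *cdc14-3 snf1*. *SPB4* (YFL002C), the gene with the highest mean, had -0.49, -0.01 and -0.10, then -1.23 and -0.95, then -0.38, -0.83 and -0.39. The *cdc14-3* arrays were the lowest for both. The difference from *snf1* passed for *SPB4* (-0.89, SE 0.23, adjusted p in limma 0.0309) and not for *DBP3* (-1.02, SE 0.34, adjusted p in limma 0.0649), which passed on the 2 h arrays (-1.42, adjusted p in limma 0.00172).

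The 10 genes of pre-60S assembly were called lower in *cdc14-3* (median -1.76) and in *cdc14-3 snf1* (median -1.29), and 5 of them in *snf1* (median of all 10, -0.50). *NOP2* (YNL061W), the gene of an RNA methyltransferase, had -1.57, -0.55 and -0.70 in *snf1*, -2.59 and -2.36 in *cdc14-3*, and -1.75, -2.02 and -1.95 in *cdc14-3 snf1*. *NOP7* (YGR103W), whose product acts in a complex with Erb1 and Ytm1, had -1.18, 0.33 and -0.11, then -2.34 and -2.39, then -1.27, -1.79 and -1.23. The 3 strains did not overlap for either gene. *NOP7* had the lowest difference of *cdc14-3* from *snf1* of all 53 genes, -2.04 (SE 0.39, limma's adjusted p 0.0114), and that of *NOP2* was -1.54 (SE 0.30, limma's adjusted p 0.0115). The partners *ERB1* and *YTM1*, named after their values were seen, differed by -1.58 and -1.64 (adjusted p in limma 0.00506 and 0.00632). *EBP2* (YKL172W) had the highest mean of the group and the widest spread in *snf1*, with -1.53, 0.69 and -0.44 there, -1.45 and -1.33 in *cdc14-3*, and -1.18, -1.05 and -1.23 in *cdc14-3 snf1*. Its strains overlapped, and its difference of -0.97 did not pass (adjusted p in limma 0.196). On the 2 h arrays it was -1.52 and passed (adjusted p in limma 0.0149).

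The last group holds GTPases and export factors of the 60S subunit. *NUG1* (YER006W), the gene of a GTPase, had -0.70, 0.11 and 0.03 in *snf1*, -2.28 and -2.02 in *cdc14-3*, and -0.66, -1.73 and -1.21 in *cdc14-3 snf1*. *NOG1* (YPL093W), the gene of another GTPase, had -1.79, -0.80 and -0.83, then -1.88 and -1.88, then -1.85, -1.57 and -1.57. *TIF6* (YPR016C), whose product keeps the subunits apart, had -0.45, -0.14 and 0.07, then -0.60 and -0.54, then -0.24, -0.17 and -0.34. For all 3 genes both *cdc14-3* arrays were the lowest. Only *NUG1* passed, with a difference of -1.96 (SE 0.34, limma's adjusted p 0.00797), against -0.74 for *NOG1* and -0.40 for *TIF6* (adjusted p in limma 0.112 and 0.190). On the 2 h arrays these were -1.06 and -0.54 and passed too (adjusted p in limma 0.00296 and 0.0393). *NOG2* (YNR053C), also a GTPase gene, had -2.10, -1.16 and -1.11 in *snf1*, -1.36 and -1.25 in *cdc14-3*, and -1.73, -1.22 and -1.26 in *cdc14-3 snf1*. Its strains overlapped, with a difference of 0.15 (adjusted p in limma 0.765). The annotation places the small nucleolar RNA gene *SNR191* within *NOG2*, and the array's handling of that overlap is not stated.

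Compared over the whole list, *cdc14-3* was lower than *snf1* for 51 of 53 genes in strain means, with *UTP22* and *NOG2* the exceptions. The median difference was -0.96, against -0.02 for all features. Limma called 31 of the 53 genes, all lower in *cdc14-3*, where it called 10.2% of all features lower and 8.74% higher (18.9% either way). By role these were 4 of 7 RNA polymerase I genes, 3 of 4 box C/D genes and 0 of 4 box H/ACA genes. Of the processome genes 7 of 12 were called, and of the genes of both subunits or late 40S maturation 3 of 4. The others were 5 of 7 helicase genes, 7 of 10 pre-60S genes and 2 of 5 GTPase and export genes. The arrays did not overlap for 43 genes lower in *cdc14-3*, against 26.9% of all features. As a description, the means of *snf1* and *cdc14-3* correlated with Pearson's r = 0.52 over the 53 genes, which share their arrays. Leaving out either *cdc14-3* array left that strain without replication. The count of called genes moved with single arrays, as did that over all features. It was 0 without *cdc14-3* replicate 2 (0% of all features), 7 without *cdc14-3* replicate 3 (4.36%), 16 and 17 without *snf1* replicates 2 and 3 (7.79% and 12.6%), and 47 without *snf1* replicate 1 (31.3%). On the 2 h arrays alone the count was 47, all lower, against 20% of all features (37.4% either way), and it included all 31. The response of the 10 salt-induced genes was also larger in *cdc14-3*, with medians of 2.28 in *snf1*, 3.46 in *cdc14-3* and 2.51 in *cdc14-3 snf1*, and 6 of the 10 were called higher in *cdc14-3* than in *snf1*. Its part in the result for the 53 genes was not tested.

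**Figure D4:**
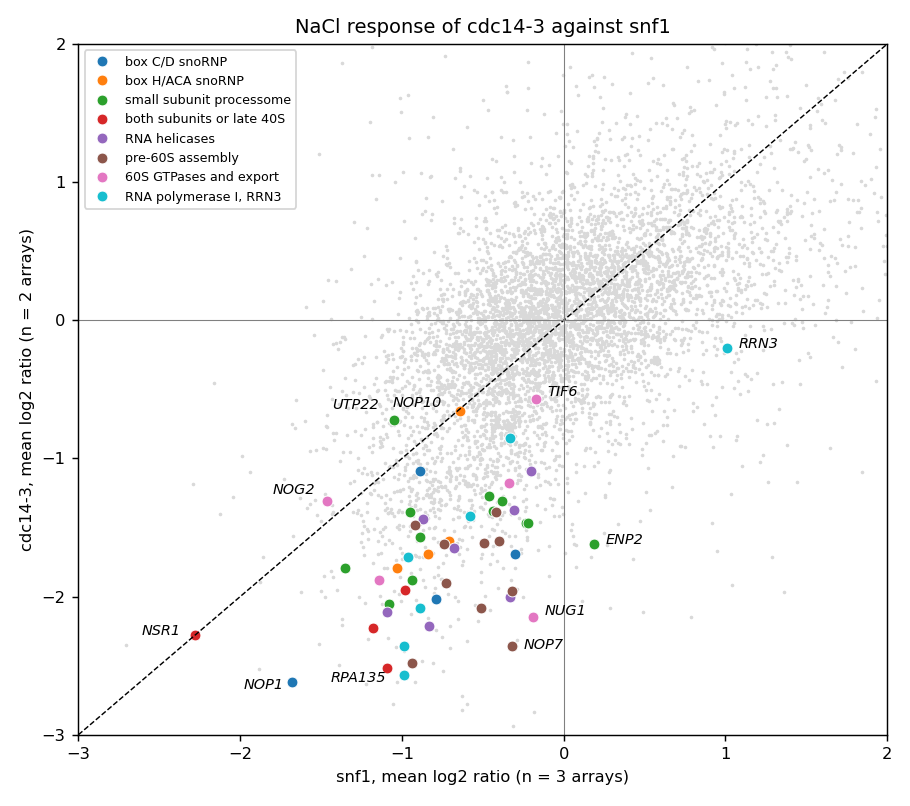
Mean log2 ratio in *cdc14-3* (y axis, n = 2 arrays) against *snf1* (x axis, n = 3 arrays), with the 53 genes coloured by role, other features in grey (those beyond the axes are not drawn) and equal values on the dashed line. The 53 genes lie on or below the line except *UTP22* and *NOG2*, and *NOP7*, *NUG1* and *ENP2* lie farthest below it.

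The double mutant asks what loss of Snf1 does to the response of cells with inactive Cdc14. Its means lay between those of the single mutants for 49 of the 53 genes, in the order *cdc14-3*, *cdc14-3 snf1*, *snf1* from low to high, an order that 34.4% of all features had. The exceptions were *NOP10*, *UTP22*, *NSR1* and *NOG2*. Against *cdc14-3* the median difference was 0.45, and 51 genes were higher in *cdc14-3 snf1*. For 44 genes all *cdc14-3 snf1* arrays were above both *cdc14-3* arrays, against 18.8% of all features, and 17% lay below them. Limma called 0 of the 53 genes (adjusted p from 0.265 to 0.996) and 0.0489% of all features. At an unadjusted p under 0.05 were 14 of the genes, all higher, and 676 of all 6135 features. The highest differences were 0.95 for *NUG1* (SE 0.34, limma's adjusted p 0.361) and 0.93 for *NOP7* (SE 0.39, limma's adjusted p 0.427), and the lowest were -0.09 for *NOG2* and -0.03 for *NOP10* (adjusted p in limma 0.949 and 0.988). *RPA135* and *RPA190* differed by 0.83 and 0.74 (adjusted p in limma 0.306 and 0.304). On the 2 h arrays alone all 53 genes were higher in *cdc14-3 snf1*, with a median of 0.42, and 0 were called (0.722% of all features, and 0.673% as lower). With array weights, which estimate the reliability of each array, 8 genes were called, all higher, against 4.43% of all features either way.

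Set against *snf1*, the double mutant asks what inactive Cdc14 does in cells without Snf1. The median difference was -0.54, and 50 genes were lower in *cdc14-3 snf1*. The arrays did not overlap for 15 genes, all lower, against 9.91% of all features lower and 9.07% higher. Limma called 0 of the 53 genes and 0% of all features (adjusted p of the genes from 0.133 to 0.950). At an unadjusted p under 0.05 were 22 of the genes, all lower, and 1137 of all 6135 features. *NOP7* and *NUG1* had the lowest differences, of -1.11 (SE 0.35, limma's adjusted p 0.171) and -1.01 (SE 0.31, limma's adjusted p 0.166). *UTP22* and *NSR1* had the highest, of 0.33 and 0.21 (adjusted p in limma 0.349 and 0.727). Without *snf1* replicate 1, 30 genes were called (12% of all features), and without *cdc14-3 snf1* replicate 1, 2 were (4.2% of all features).

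Among the 2 h arrays this comparison was different in its calls. Limma called 36 of the 53 genes, 35 lower and 1 higher in *cdc14-3 snf1*, where it called 22.7% of all features and 12.8% as lower. The lower genes included *RPA190*, *RPA135*, *RPA43*, *RPA49* and *RPA34* (differences from -1.04 to -0.65, adjusted p in limma 0.0223 to 0.0321) and *RRN3* (-0.74, adjusted p in limma 0.0387). *NOP7* and *NUG1* differed by -1.62 and -1.54 (adjusted p in limma 0.00990 and 0.00941). The higher gene was *UTP22*, with 0.52 (adjusted p in limma 0.0470). After NaCl the median of the 53 genes on these arrays was -0.41 in *snf1*, with 29 genes called lower (26.3% of all features) and *RRN3* higher. It was -1.65 in *cdc14-3*, with 52 lower (27.4%), and -1.25 in *cdc14-3 snf1*, with 50 lower (25.9%, and 46.4% either way).

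The 90 min array stood below the 2 h arrays for most of the genes in *snf1* but not in *cdc14-3 snf1*. In *snf1* the 90 min array was below both 2 h arrays for 51 of the 53 genes, against 43.9% of all features, and the exceptions were *UTP22* and *RRN3*. In *cdc14-3 snf1* it was below both for 10 genes, against 37.9%, and above both for 24, against 38.6%. A test of the time at 35 °C over both strains called 0 of the 53 genes and 0% of all features, with 9 of the genes and 1103 of all 6135 features at an unadjusted p under 0.05. It called 8 genes once *cdc14-3 snf1* replicate 1 was left out, against 5.79% of all features. The median difference was -0.75 in *snf1* and 0.04 in *cdc14-3 snf1*. The difference between the strains in this effect, tested after the values had been seen, passed for 0 of the 53 genes (adjusted p in limma 0.110 to 0.937) and for 0% of all features. At an unadjusted p under 0.05 were 27 of the genes and 1251 of all 6135 features. With 1 array at 90 min in each strain, the time at 35 °C and that array cannot be told apart.

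**Figure D5:**
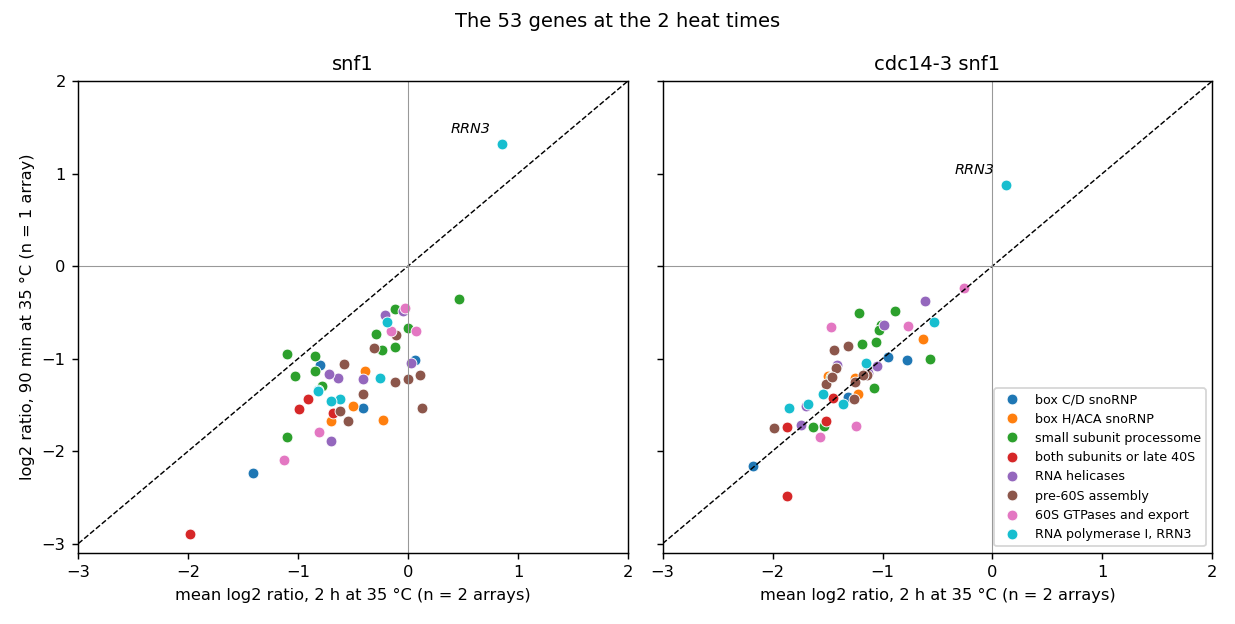
Log2 ratio of the 53 genes on the 90 min array (y axis, n = 1) against the mean of the 2 h arrays (x axis, n = 2) in *snf1* and *cdc14-3 snf1*, coloured by role, with equal values on the dashed line. In *snf1* nearly all points lie below the line (median difference -0.75), and in *cdc14-3 snf1* they lie along it (0.04).

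The genes that varied most alike over the 8 arrays crossed the role groups. As a description, *RPA190* was most like *RRP5* and *RPA135* (Pearson's r = 0.99 for both), and *RPA135* most like *RPA190* (0.99) and the helicase gene *HAS1* (0.98). *RPA43* was most like *NOP2* and *DBP9* (0.98 for both), *RPA49* most like *NOG1* and *DBP3* (0.98 for both), and *RPA34* most like *SPB1* (0.99) and *SOF1* (0.97). The values were lower for *RPA12*, with *NIP7* (0.86) and *NOP1* (0.84), and for *RRN3*, with *IMP4* (0.90) and *DBP10* (0.87). These are correlations over 8 arrays of 3 strains, so that strain means and array quality enter all of them.

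A list of 91 other ribosome biogenesis genes followed the same order, with medians of -0.42 in *snf1*, -1.41 in *cdc14-3* and -0.98 in *cdc14-3 snf1*. In *snf1* 45 of them were called lower and 4 higher (*FAL1*, *UTP30*, *DBP6* and *RRP36*, factors of small or large subunit processing), against 27% and 24.3% of all features. In *cdc14-3* 80 were called lower and in *cdc14-3 snf1* 74, against 22% and 25.5% of all features. Between *cdc14-3* and *snf1* 45 were called, all lower in *cdc14-3*, with a median of -0.96. Of all features 10.2% were called lower in this comparison. The 136 ribosomal protein genes had a median of -0.83 in *snf1* and of -1.22 in both other strains, and 3 of them were called lower in *cdc14-3* than in *snf1*. By array their median was -1.61, -0.53 and -0.40 in *snf1* (replicates 1, 2 and 3) and -1.02 and -1.39 in *cdc14-3* (replicates 2 and 3). Replicate 1 of *snf1* was thus below both *cdc14-3* arrays, and replicates 2 and 3 of *snf1* were above them. Calls on the 2 h arrays alone were not counted for this list. Of 10 subunit genes particular to RNA polymerase III, 8 were called lower in *cdc14-3* (median -0.94), and of 7 particular to RNA polymerase II, 3 were (median -0.33). In that strain 22% of all features were called lower and 40.3% either way. Of 8 regulators of these genes, 3 were called lower and 1 higher in *snf1*, 3 and 1 in *cdc14-3*, and 2 and 2 in *cdc14-3 snf1*, near the shares of all features (51.3%, 40.3% and 46.1% either way). *TOD6*, which encodes a repressor of ribosome biogenesis genes, fell in all strains, with means of -1.44, -1.82 and -1.77 (adjusted p in limma 0.000109, 8.17e-05 and 0.000110). Its paralog *DOT6* fell in *snf1* (-0.78, adjusted p in limma 0.00178), and the mean was -0.33 in both other strains and did not pass. *SFP1*, which encodes an activator of these genes, rose in *cdc14-3 snf1* (0.51, adjusted p in limma 0.0230), with 0.39 in *snf1* and 0.35 in *cdc14-3* not passing. *STB3*, a gene for a repressor, had -0.23, 0.39 and 0.14 and was called in no strain. None of the 8 regulator genes differed between strains past the threshold.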

How the data were processed

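Total RNA was reverse-transcribed, labelled with Oyster dyes and hybridised to whole-genome tiled arrays, with NaCl-treated cells in the same channel on all 8 arrays. A dye bias therefore enters each response against 0. It cancels between strains only if it was the same on every array, which was not tested. For each feature and array the authors deposited a ratio, read here as log2. The paper refers to earlier studies for the normalization. Its steps, how probes were combined and the genome build are not given in the sources used here. Values were used as deposited. Features with at least 2 values per strain were tested (6135 of 6868, and 6096 had values on all arrays). Symbols came from a RefSeq table for R64, which matched 5984 features.

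Using limma 3.58.1 under R 4.3.3, strain means were estimated over the 8 arrays with eBayes and Benjamini-Hochberg adjustment. The fit was also run on simulated data with noise independent between genes and arrays. That run cannot show how the fit handles shifts shared by the genes of an array. Alternatives were a replicate block, heat time as a covariate, the 2 h arrays, array weights, equal spread, mean centring, other filters, trended eBayes, each pair of strains alone and each array left out. Replicate numbers were not taken to pair arrays. Sequences and promoter motifs were not analysed here.

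The genes, their roles and all lists were chosen with earlier results of these data known. Values per array are given for the RNA polymerase I genes, for the genes with the highest and lowest mean of each other role, and for the 2 highest and 2 lowest of each strain difference. Other genes are given by range and count, and named where a count of 5 or fewer falls on them. The number of arrays limits the precision.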

Additional observations from a re-analysis of the deposited data

Results flagged for a closer look

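The response of 31 of the 53 genes differed between *cdc14-3* and *snf1*, each lower in *cdc14-3*, where 18.9% of all features were called and 10.2% as lower. The count moved with single arrays, and leaving out either *cdc14-3* array left that strain without replication. Among the genes given with values per array, the differences that passed were -0.93 for *NOP1*, -1.39 for *NOP56*, -1.81 for *ENP2*, -0.96 for *ENP1*, -0.89 for *SPB4*, -1.54 for *NOP2*, -2.04 for *NOP7* and -1.96 for *NUG1*. For RNA polymerase I they were -1.37 for *RPA190*, -1.58 for *RPA135* and -1.19 for *RPA43*. *RRN3* differed by -1.21 and had opposite signs in the strains, above 0 on 3 of 3 *snf1* arrays and below 0 on 2 of 2 *cdc14-3* arrays. Of all features 4.75% had this pattern, and the *cdc14-3* mean of -0.20 did not differ from 0 past the threshold. The adjusted p of these differences in limma ran from 0.00719 to 0.0459.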

How the results depend on the processing

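Of the values of single genes under the alternatives, 1800 kept direction and side of the threshold, 84 lost a call, 73 gained one and 38 changed sign. The counts of genes called after NaCl in each strain moved by less than 1.5 times under every alternative, and the *cdc14-3* minus *snf1* count, with the share of all features called, was 21 (13.6%) with those 2 strains fitted alone, 24 (19.3%) after mean centring, 27 (15.9%) without the filter on missing values, 29 (19.9%) with trended eBayes, 32 (19%) over features on all arrays, 39 (19.7%) with heat time as a covariate and 43 (23.6%) with each array scaled to 1 spread. It was 47 on the 2 h arrays and 47 with array weights (41.5% of all features), and 0 to 47 with 1 array left out. *cdc14-3 snf1* minus *snf1* gave 36 on the 2 h arrays, 38 with array weights (27% of all features) and 0 to 30 with 1 array left out. *cdc14-3 snf1* minus *cdc14-3* gave 8 with array weights. The heat time count was 0 to 8 with 1 array left out. The cause of these changes was not tested.

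On the 2 h arrays the median of the 53 genes in *snf1* was -0.41, against -0.74 on all arrays. The median of *cdc14-3* minus *snf1* was -1.19 there, against -0.96, and that of *cdc14-3 snf1* minus *snf1* was -0.78, against -0.54. The median of the 53 genes in *cdc14-3* was -1.70 with each array scaled to 1 spread and -1.71 to -1.65 with 1 array left out. That in *cdc14-3 snf1* was -1.36 with 1 spread and -1.10 with heat time as a covariate, which also moved the median of *cdc14-3 snf1* minus *cdc14-3* to 0.52.

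With the replicate number as a block (replicate block), 35, 52 and 52 genes were called after NaCl in *snf1*, *cdc14-3* and *cdc14-3 snf1*, and 33, 0 and 0 in the strain differences. The median became -1.80 in *cdc14-3* and 0.52 for *cdc14-3 snf1* minus *cdc14-3*, and *RRN3* in *cdc14-3* became 0.01. Deviations from the strain mean correlated between -0.21 and 0.26 for arrays with the same number. With 2 *cdc14-3* arrays the deviations mirror each other, so this check cannot exclude that numbers pair arrays. Across genes, *snf1* replicate 1 correlated at 0.90 with *cdc14-3 snf1* replicate 1 and at 0.77 with both other *snf1* arrays. For replicates 2 and 3 of these 2 strains the values were 0.58 and 0.63. Nothing states what a number shares beyond the heat time of replicate 1, so the main fit has no block.

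Values near 0 changed sign. In *snf1*, *NOP56*, *EBP2*, *NOP7* and *NUG1* were 0.06, 0.13, 0.11 and 0.07 on the 2 h arrays and 0.04, 0.16, 0.07 and 0.02 with array weights. With 1 array left out they ran from -0.59 to 0.06, -0.98 to 0.13, -0.64 to 0.11 and -0.34 to 0.07, and *ENP2* from -0.12 to 0.46. *NOG2* in *cdc14-3* minus *snf1* was -0.10 with the replicate block or the heat covariate, -0.17 on the 2 h arrays, -0.09 with array weights, -0.04 with 1 spread and -0.17 to 0.32 with 1 array left out. *NOG2* in *cdc14-3 snf1* minus *cdc14-3* was 0.15 with the block or the covariate, 0.07 on the 2 h arrays, 0.01 with array weights and -0.19 to 0.07 with 1 array left out. *NOP10* in the latter was 0.13 with the block or the covariate, 0.03 on the 2 h arrays and -0.28 to 0.23 with 1 array left out, and in *cdc14-3* minus *snf1* it was 0.10 after mean centring and -0.28 to 0.24. *NSR1* in *cdc14-3 snf1* minus *snf1* was -0.15 with 1 spread and -0.10 to 0.42 with 1 array left out. Mean centring moved the median of all features in *snf1* to -0.19.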
